A study of Mus musculus with 25 samples.

Results

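Injection of mRNA for Kdm3a, the demethylase that removes 1 or both methyl groups from lysine 9 of histone H3 when that lysine carries 1 or 2 of them (H3K9me1/2), was compared with no injection in mouse embryos made by somatic cell nuclear transfer (SCNT). The comparison rests on 4 of the 25 RNA-seq libraries of the series, namely 2 of SCNT embryos injected with Kdm3a mRNA (SCNT-Kdm3a) and 2 of untreated SCNT embryos (control SCNT). They were chosen by their treatment labels and analysed over the annotated genes of the count table. The 4 libraries of in vitro fertilized (IVF) embryos show where each gene stood after fertilization. Of the autosomal genes tested, 613 were raised and 459 were lowered by Kdm3a. Genes of the Zscan4, Obox and Usp17l families and factors that build ribosomes were among the raised ones. Gadd45g, Ccnd2, Nupr1, Serpine2, H2-K1, Sqstm1, Ctsd and Ndufs6 were among the lowered ones.

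All SCNT embryos compared here received a cumulus cell nucleus of a BDF1 female in an enucleated BDF1 oocyte, so they were female. Enucleation was done in 7.5 μg/mL cytochalasin B and activation in strontium with 5 μg/mL cytochalasin B, in both groups. SCNT-Kdm3a embryos received about 10 pL of Kdm3a mRNA, labelled as 1500 ng/μL, at 5 to 6 h, and the label of the control names no treatment, so an injection of another mRNA or of buffer was not part of this comparison. The IVF embryos, of both sexes, had B6N mothers and DBA/2 fathers. Each library was a pool of 5 to 10 two-cell embryos collected at 28 to 29 h. A further pair of untreated SCNT libraries, for which latrunculin A replaced cytochalasin B (SCNT-LatA), is used below as a second reference.

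Methylation of H3K9 marks silent chromatin. Mono- and dimethylation are laid down largely by EHMT1 and EHMT2, trimethylation by SUV39H1, SUV39H2 and SETDB1, and heterochromatin protein 1 (Cbx1, Cbx3, Cbx5) binds the mark. KDM3A, KDM3B and JMJD1C form the demethylase family that acts on H3K9me1/2, whereas KDM4 enzymes act on H3K9me3 and H3K9me2. The mouse embryo starts its major wave of transcription, zygotic genome activation, at the two-cell stage, and the Zscan4, Obox, Usp17l, Tcstv and Trim43 families are known for a burst of transcription at that time. In SCNT embryos this activation has to take place on chromatin that came from a differentiated cell.

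Kdm3a itself was measured first. The gene (chr6:71588972-71632990 in mm10, minus strand) stood at 217 and 213 CPM (read counts scaled to equal TMM library sizes) in the control libraries and at 3674 and 3304 CPM in the SCNT-Kdm3a libraries. The rise was 16.2-fold, with an interval of 1 SE from 13.6 to 19.3 (log2 fold change 4.02, SE 0.25, adjusted p = 6.72e-11). The transcript made up 0.312% and 0.275% of the reads assigned to genes in the injected libraries. In the other 23 libraries of the series it lay between 115 and 282 CPM with a median of 191, and the IVF libraries held 194, 201, 191 and 201 CPM. Reads of the injected and of the embryo's own transcript cannot be told apart. The highest of the 23, 282 CPM, was in SCNT embryos injected with mRNA of the H3K9me3 demethylase Kdm4d, whose other library held 275 CPM.

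The libraries held 9136103 and 11878059 reads assigned to genes in the control, 21188688 and 13240378 in SCNT-Kdm3a and 6662727 to 16791202 in IVF. Mitochondrial transcripts took 8.28 to 10.2% of these reads in the control, 5.78 to 7.35% in SCNT-Kdm3a and 4.65 to 5.78% in IVF. Pearson's r between the log2 CPM values of the replicates was 0.939 in the control and 0.950 in SCNT-Kdm3a, across genes. The 8 markers fixed for two-cell embryos summed to 1165 and 1450 CPM in the control, 3312 and 2805 in SCNT-Kdm3a and 2166 to 2647 in IVF. The 6 oocyte markers summed to 334 to 407, 401 to 422 and 627 to 721 CPM in the same order. The 8 cumulus cell markers summed to 4.11 and 14.2 CPM in the control, 3.17 and 0.726 in SCNT-Kdm3a and 1.70 to 3.78 in IVF, and 1 of them had no read in either control library against 4 in SCNT-Kdm3a. Fst alone held 10.6 of the 14.2 CPM of control replicate 2. Cyp11a1 and Has2 went the other way and were highest, among these 4 SCNT libraries, in SCNT-Kdm3a replicate 1. In pooled embryos, fewer cells of a kind and less RNA per cell cannot be told apart.

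To find the genes that changed, edgeR's quasi-likelihood test was fitted to all 25 libraries, and a gene was called raised or lowered at a Benjamini-Hochberg adjusted p below 0.05 and a fold change over 2. Of 25794 autosomal genes that reached a mean of 1 read over the libraries, 613 (2.38%) were raised and 459 (1.78%) were lowered in SCNT-Kdm3a against control SCNT. The counts of called members in the gene lists below are to be read against these 2 shares, which are not matched for level. The 2 sets differed in level. The raised genes had a median of 53.4 CPM in the SCNT-Kdm3a libraries, and 497 of them (81.1%) exceeded 10 CPM and 28 exceeded 1000 CPM. Of all tested genes, 32.2% exceeded 10 CPM in the control. A list of well-expressed genes is therefore not set against genes of like level. The lowered genes had a median of 9.26 CPM in the control, with 221 over 10 CPM and 1 over 1000 CPM. The median log2 fold change was 1.49 for raised and −2.25 for lowered genes, against −0.04 over all genes tested and 0.12 over the 8339 genes above 10 CPM. Protein-coding genes made up 69.2% of the raised and 90.2% of the lowered genes, against 62.9% of all tested. Pseudogenes made up 17.0% of the raised and 1.3% of the lowered genes, against 13% of all tested.

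The number of calls depended on single libraries. Without control replicate 1 there were 201 raised and 142 lowered genes, of which 174 and 127 belonged to the genes called with all libraries, and 613 of 613 and 458 of 459 kept their direction. Without SCNT-Kdm3a replicate 2 the counts were 349 and 191, and without control replicate 2 they were 925 and 410. DESeq2 called 668 raised and 832 lowered genes, so that raised genes were 44.5% of its calls against 57.2% in edgeR. In all 13 alternative fits, 118 raised and 53 lowered genes were called. With 2 libraries a group an exact permutation test cannot go below p = 0.333, so the calls draw on the spread within all groups of the series, and they measure the spread between pools of embryos. Paragraphs below end with the named genes whose call was lost when 1 of the 4 libraries was left out, with the adjusted p in those fits, or with the log2 fold change where it was the fold that no longer passed.

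The Zscan4 cluster on chromosome 7 codes for SCAN-domain zinc finger proteins that act in telomere maintenance and mark the two-cell state. Of its 9 members tested, 6 were raised and none was lowered, with a median log2 fold change of 3.19 (2.95 when genes at the floor of 3 reads are set to their bound). Not all members are annotated as coding. Among the raised ones, Zscan4-ps1 and Zscan4-ps2 are pseudogenes by name, and the annotation used here lists Zscan4a as an unprocessed pseudogene. Zscan4d stood at 7.60 and 9.72 CPM in the control and at 147 and 129 CPM in SCNT-Kdm3a (log2 fold change 3.99, SE 0.47, adjusted p = 1.04e-05), and the IVF libraries held 193, 167, 216 and 181 CPM. Zscan4a went from 6.68 and 5.66 to 75.6 and 42.2 CPM (log2 fold change 3.26, SE 0.35, adjusted p = 3.39e-06) while the IVF libraries lay between 110 and 183 CPM. Zscan4f had 0.103 and 1.44 CPM in the control, 14.4 and 15.2 CPM in SCNT-Kdm3a and 62.0, 36.1, 69.8 and 40.1 CPM in IVF (log2 fold change 4.18, SE 0.64, adjusted p = 0.000222). In all 3 genes both injected libraries stood above both controls and below all 4 IVF libraries. Zscan4c went from 5.03 and 3.30 to 20.3 and 39.8 CPM (log2 fold change 2.85, SE 0.67, adjusted p = 0.0101). Zscan4b, Zscan4e and Zscan4-ps3 had log2 fold changes of 3.19, 0.91 and 1.74 and were not called (adjusted p = 0.0815, 0.68 and 0.169), although Zscan4-ps3 was without control replicate 2 (5.14, adjusted p = 0.0038). The count of raised members was 7 in DESeq2 and without the filter on low counts, 8 with SCNT-LatA or both untreated groups as the reference, and 5 without control replicate 1 or SCNT-Kdm3a replicate 2. The members are close copies and only uniquely mapped pairs were counted, so a read of one copy may have been dropped or assigned to another and the values of single members are uncertain. The copies are seen in the 300 bases around their starts (250 bases before and 50 from the first transcribed base on, from RefSeq on GRCm38.p6), which are shown for 3 raised Zscan4 genes, for 2 raised Usp17l genes and for Obox3, with the letters TATAAA and GGATTA in capitals:
Zscan4c (chr7:11005495-11005794, plus strand): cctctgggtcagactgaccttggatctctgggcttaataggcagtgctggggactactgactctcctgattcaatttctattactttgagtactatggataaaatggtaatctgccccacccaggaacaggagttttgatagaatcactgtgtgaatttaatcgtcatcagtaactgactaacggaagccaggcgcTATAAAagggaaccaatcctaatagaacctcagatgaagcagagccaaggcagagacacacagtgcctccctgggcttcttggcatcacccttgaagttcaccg
Zscan4d (chr7:11166099-11166398, minus strand): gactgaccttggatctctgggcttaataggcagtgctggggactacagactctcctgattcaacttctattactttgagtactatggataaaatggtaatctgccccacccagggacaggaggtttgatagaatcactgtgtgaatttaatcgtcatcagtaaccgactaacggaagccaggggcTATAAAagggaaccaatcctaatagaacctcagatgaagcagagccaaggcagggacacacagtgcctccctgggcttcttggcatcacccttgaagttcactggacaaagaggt
Zscan4f (chr7:11397665-11397964, plus strand): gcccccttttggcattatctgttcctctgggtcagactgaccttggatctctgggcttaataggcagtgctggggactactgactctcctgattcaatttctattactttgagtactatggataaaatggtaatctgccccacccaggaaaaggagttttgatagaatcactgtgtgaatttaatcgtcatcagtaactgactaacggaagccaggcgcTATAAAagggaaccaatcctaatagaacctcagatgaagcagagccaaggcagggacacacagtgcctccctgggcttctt
Usp17la (chr7:104856766-104857065, plus strand): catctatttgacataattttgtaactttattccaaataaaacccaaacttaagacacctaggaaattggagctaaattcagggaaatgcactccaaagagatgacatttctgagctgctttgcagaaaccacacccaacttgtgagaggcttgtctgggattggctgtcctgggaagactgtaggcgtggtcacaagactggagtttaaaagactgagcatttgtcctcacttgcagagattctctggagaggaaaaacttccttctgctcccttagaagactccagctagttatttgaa
Usp17lb (chr7:104842534-104842833, minus strand): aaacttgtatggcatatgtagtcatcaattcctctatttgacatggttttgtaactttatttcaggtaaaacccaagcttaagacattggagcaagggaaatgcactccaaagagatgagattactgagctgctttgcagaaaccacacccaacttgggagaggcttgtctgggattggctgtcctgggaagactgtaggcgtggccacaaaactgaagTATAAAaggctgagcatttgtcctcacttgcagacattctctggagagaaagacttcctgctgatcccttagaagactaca
Obox3 (chr7:15639728-15640027, minus strand): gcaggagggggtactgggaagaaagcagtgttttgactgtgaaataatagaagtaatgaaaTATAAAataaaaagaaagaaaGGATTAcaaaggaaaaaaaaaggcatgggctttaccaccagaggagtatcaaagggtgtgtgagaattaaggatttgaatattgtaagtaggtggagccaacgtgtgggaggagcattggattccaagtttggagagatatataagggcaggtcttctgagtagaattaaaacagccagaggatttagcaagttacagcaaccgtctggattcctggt
Without gaps, Zscan4c and Zscan4f shared 99.3% of 277 aligned bases, Zscan4c and Zscan4d 97.2% of 289 and Zscan4d and Zscan4f 97.4% of 266. Usp17la and Usp17lb shared 67.7% of 285. The hexamer TATAAA, the core of a TATA box, began at base −54 of Zscan4c, −65 of Zscan4d, −31 of Zscan4f, −31 of Usp17lb and −189 of Obox3, counted from −1 as the base before the annotated start, and the window of Usp17la held none. Of the RefSeq promoters of all 27025 genes, 15.7% held TATAAA and 8.14% held GGATTA on either strand. With 1 library left out, the call was lost without control replicate 1 for Zscan4c (adjusted p = 0.0771), without control replicate 2 for Zscan4c (adjusted p = 0.0831) and without SCNT-Kdm3a replicate 2 for Zscan4c (adjusted p = 0.101).

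Obox genes are homeobox genes of the oocyte and early embryo, and 3 of the 7 tested were raised. Obox3 stood at 50.1 and 35.8 CPM in the control and 411 and 316 CPM in SCNT-Kdm3a (log2 fold change 3.08, SE 0.29, adjusted p = 6.16e-07), and Obox8 at 100.9 and 129 and 581 and 600 CPM (log2 fold change 2.36, SE 0.28, adjusted p = 9.66e-06). The IVF libraries held 372, 326, 385 and 318 CPM of Obox3 and 512, 440, 535 and 442 CPM of Obox8, so 1 injected library lay above and 1 just below the IVF values for Obox3, both lay above for Obox8, and both controls lay below. Obox6 stood at 427 and 659 CPM in the control, 1508 and 1391 in SCNT-Kdm3a and 1340, 1155, 1331 and 1118 in IVF (log2 fold change 1.42, SE 0.25, adjusted p = 0.000965). The other 4 (Obox1, Obox2, Obox5, Obox7) had log2 fold changes between −0.27 and 0.16, did not pass, and turned sign with the setting. Obox1, Obox2 and Obox5 are stored in the oocyte, and in each of these 3 both SCNT groups lay below all 4 IVF libraries. Obox5 held 171 and 216, 211 and 186 and 396, 454, 496 and 569 CPM in control, SCNT-Kdm3a and IVF. Reads of Obox genes and of their pseudogene copies may also be split. Leaving out 1 library ended the call without control replicate 1 for Obox6 (adjusted p = 0.053).

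Among 28 tested genes whose two-cell transcription is linked to the retrovirus MERVL, 12 were raised and none was lowered, with a median log2 fold change of 1.32 against −0.04 over all genes. Usp17lb, one of the Usp17l deubiquitinases (copies of one another), stood at 108 and 293 CPM in the control and 1635 and 2274 CPM in SCNT-Kdm3a (log2 fold change 3.29, SE 0.49, adjusted p = 0.00017), above all 4 IVF libraries at 848, 669, 906 and 756 CPM. Usp17la went from 0.719 and 1.69 to 27.5 and 11.3 CPM (log2 fold change 3.98, SE 0.62, adjusted p = 0.000274). Usp17le had 2 and 1 reads in the controls and 2.06 and 5.35 CPM in SCNT-Kdm3a, a ratio of 23.8 (95% interval 7.89 to 117, exact binomial, counting error only). The 95% intervals of all ratios below are of this kind and leave out the spread between libraries. AF067061, of the Tcstv region on chromosome 13, stood at 14.7 and 10.6 CPM in the control, 98.9 and 59.0 in SCNT-Kdm3a and 27.3, 30.8, 61.2 and 28.5 in IVF (log2 fold change 2.65, SE 0.40, adjusted p = 0.000202). Dppa2 and Dppa4 code for partner chromatin proteins that act upstream of the MERVL programme. Dppa2 rose from 446 and 660 to 1377 and 1498 CPM (log2 fold change 1.38, SE 0.27, adjusted p = 0.00221) and Dppa4 from 301 and 451 to 796 and 948 CPM (log2 fold change 1.21, SE 0.23, adjusted p = 0.00175). The IVF libraries held 556 to 692 CPM of Dppa2 and 513 to 629 of Dppa4, between the controls and the injected libraries for Dppa4 and overlapping one control for Dppa2. Without control replicate 1, 7 MERVL-linked genes were called. Of the 15 Prame and Oog genes tested, which code for leucine-rich repeat proteins of germ cells and early embryos, Pramel4, Pramel7, Pramef6 and Pramef17 were raised, with log2 fold changes from 1.05 to 1.82. The call was lost without control replicate 1 for Usp17le, Dppa2, Dppa4, Pramel4, Pramel7, Pramef6 and Pramef17 (adjusted p = 0.0529 to 0.301), without control replicate 2 for Usp17le (adjusted p = 0.0506), without SCNT-Kdm3a replicate 1 for Pramef17 (adjusted p = 0.0909) and without SCNT-Kdm3a replicate 2 for Usp17le, Pramel4, Pramel7, Pramef6 and Pramef17 (adjusted p = 0.0521 to 0.278).

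**Figure D1:**
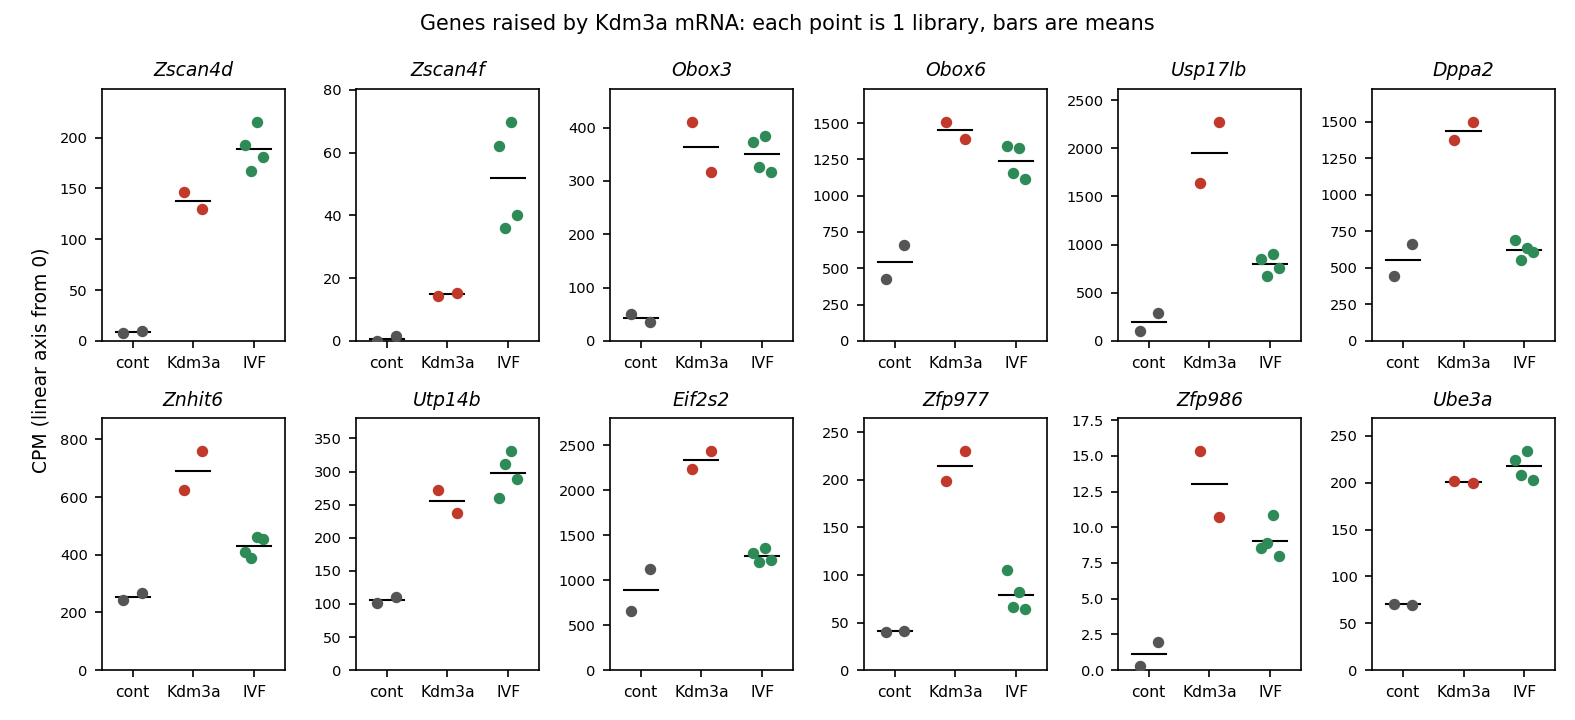
CPM of 12 raised genes in each library, on linear axes from 0, with 1 point per library for control SCNT (grey, n = 2), SCNT-Kdm3a (red, n = 2) and IVF (green, n = 4) and a bar at each group mean. In every panel both SCNT-Kdm3a libraries lie above both controls. They lie below the IVF libraries for Zscan4d and Zscan4f, on either side of them for Obox3, below or among them for Utp14b, and above them for Obox6, Usp17lb, Dppa2, Znhit6, Eif2s2 and Zfp977.

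Ribosome biogenesis factors process and assemble ribosomal RNA in the nucleolus, and 17 of 102 tested (16.7%) were raised, against 2.38% of all genes, and none was lowered. Their median log2 fold change was 0.62, against 0.12 over all genes above 10 CPM, and 93 of 102 lay above 0. The count was 3 without control replicate 1, 39 without control replicate 2 and 4 without SCNT-Kdm3a replicate 2. Znhit6, needed to assemble box C/D nucleolar ribonucleoproteins, stood at 243 and 266 CPM in the control, 623 and 760 in SCNT-Kdm3a and 410, 390, 463 and 455 in IVF (log2 fold change 1.44, SE 0.18, adjusted p = 2.37e-05). Utp14b, of the small subunit processome, went from 102 and 110 to 272 and 238 CPM against 260, 311, 331 and 289 in IVF (log2 fold change 1.27, SE 0.17, adjusted p = 4.08e-05). Both held in every alternative fit. Utp6, of the same complex, and Riok2, a kinase of late 40S maturation, had log2 fold changes of 1.40 and 1.24 (adjusted p = 0.00127 and 0.0028). Taf1a and Taf1b, subunits of the selectivity factor that brings RNA polymerase I to ribosomal DNA, rose by log2 fold changes of 1.17 and 1.27 (SE 0.22 and 0.25, adjusted p = 0.00188 and 0.00277), and they were the 2 of 22 genes of RNA polymerase I and III that passed. Structural proteins of the cytosolic ribosome moved less. Of 81 tested, 73 lay above 0 with a median of 0.36, and Rpl24 alone passed (4 without control replicate 2), at 7.70 and 9.38 CPM in the control and 15.5 and 19.04 CPM in SCNT-Kdm3a (log2 fold change 1.01, SE 0.31, adjusted p = 0.0464), a change that was under 2-fold in DESeq2 (log2 fold change 0.95). Dropping 1 library ended the call without control replicate 1 for Utp6, Riok2, Taf1a, Taf1b and Rpl24 (adjusted p = 0.0596 to 0.298), without control replicate 2 for Rpl24 (adjusted p = 0.0824), without SCNT-Kdm3a replicate 1 for Rpl24 (adjusted p = 0.0748) and without SCNT-Kdm3a replicate 2 for Rpl24 (adjusted p = 0.245).

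General transcription, splicing and translation genes gave fewer calls. Of 69 genes of RNA polymerase II and its general factors, 5 were raised and 1 was lowered. Tbp, the TATA-binding protein, rose from 84.3 and 97.0 to 180 and 231 CPM (log2 fold change 1.18, SE 0.22, adjusted p = 0.00151), still below the IVF values of 281, 252, 317 and 303 CPM. Taf7, a TFIID subunit, went from 416 and 456 to 902 and 960 CPM (log2 fold change 1.10, SE 0.19, adjusted p = 0.000689), and Med11 of the Mediator complex from 18.8 and 29.8 to 53.3 and 62.4 CPM (log2 fold change 1.25, SE 0.25, adjusted p = 0.00294). Med12l, another Mediator gene, was lowered by 1.73 on the log2 scale (adjusted p = 0.0456), with 17.6 and 3.72 CPM in the control libraries against 2.44 and 3.99 in SCNT-Kdm3a, so 1 control lay within the injected range. Of 67 spliceosome genes 2 (2.99%) were raised, near the 2.38% of all genes, and 7 were without control replicate 2. They were Srsf5 and Snrnp35, with log2 fold changes of 1.20 and 1.19 (adjusted p = 0.00293 and 0.00192). Of 51 translation initiation factors 2 (3.92%) were raised, the alpha and beta subunits of eIF2, which brings the initiator tRNA to the ribosome. The count was 9 without control replicate 2 and 6 with SCNT-LatA as the reference. Eif2s2 stood at 659 and 1122 CPM in the control, 2236 and 2435 in SCNT-Kdm3a and 1303, 1198, 1353 and 1220 in IVF (log2 fold change 1.39, SE 0.20, adjusted p = 9.26e-05). Eif2s1 went from 284 and 666 to 1053 and 1180 CPM (log2 fold change 1.23, SE 0.32, adjusted p = 0.0207). No aminoacyl-tRNA synthetase of 23 was called, but 3 were raised without control replicate 2, as were 10 of the RNA polymerase II genes. With 1 library left out, the call was lost without control replicate 1 for Med11, Med12l, Srsf5, Snrnp35 and Eif2s1 (adjusted p = 0.0679 to 0.907), without SCNT-Kdm3a replicate 1 for Med12l and Eif2s1 (adjusted p = 0.0503 to 0.269) and without SCNT-Kdm3a replicate 2 for Med12l and Eif2s1 (adjusted p = 0.1 to 0.116) and Tbp (log2 fold change 0.99).

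DNA replication and the cell cycle showed a few raised genes. Of 45 replication genes, 4 were raised and 35 lay above 0, with a median of 0.46. They were Mcm4 of the replicative helicase (66.7 and 100.5 CPM in the control, 181 and 197 in SCNT-Kdm3a, 51.5, 44.8, 67.0 and 72.0 in IVF, log2 fold change 1.18), Gins1 of the same helicase (1.13), the primase subunit Prim1 (1.03) and Orc1 of the origin recognition complex (1.01). Mcm4, Gins1 and Prim1 thereby lay above all 4 IVF libraries in both injected libraries. DESeq2, RLE normalization in place of TMM, and the fit of only the 4 libraries each gave 2 raised replication genes, without Prim1 and Orc1. With SCNT-LatA or both untreated groups as the reference, Orc1 was not called either. Replication genes gave 1 raised gene without control replicate 1, 8 without control replicate 2 and none without SCNT-Kdm3a replicate 2. Among 38 mitotic and cell cycle regulators, Aurka, the mitotic Aurora A kinase, stood at 173 and 395 CPM in the control and 637 and 785 CPM in SCNT-Kdm3a (log2 fold change 1.32, SE 0.31, adjusted p = 0.0106), and the phosphatase Cdc25c at 171 and 317 and 438 and 600 CPM (log2 fold change 1.09, SE 0.31, adjusted p = 0.0323). The control replicates differed here by nearly as much as the groups. The G1 genes Ccnd2 and Cdk6, which code for partners in the kinase that opens the cell cycle, were lowered. Ccnd2 stood at 17.4 and 33.7 CPM in the control, 2.39 and 3.36 in SCNT-Kdm3a and 1.97, 0.857, 3.02 and 1.48 in IVF (log2 fold change −3.16, SE 0.66, adjusted p = 0.00416). No replication-dependent histone gene of 28 was called. Leaving out 1 library ended the call without control replicate 1 for Mcm4, Gins1, Orc1, Aurka, Cdc25c and Cdk6 (adjusted p = 0.145 to 0.37), without control replicate 2 for Prim1 (log2 fold change 0.96), without SCNT-Kdm3a replicate 1 for Ccnd2 and Cdk6 (adjusted p = 0.0507 to 0.059) and without SCNT-Kdm3a replicate 2 for Mcm4, Gins1, Orc1, Aurka, Cdc25c and Cdk6 (adjusted p = 0.0514 to 0.264) and Prim1 (log2 fold change 0.94).

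Genes named Zfp code for zinc finger proteins, many of them KRAB proteins that recruit H3K9 methylation to repeats. Of 369 tested, 24 were raised and 3 were lowered, while the median of the list was 0.04. Of the raised ones, 4 of 6 tested lay on chromosome 10, 4 of 30 on chromosome 4 and 4 of 90 on chromosome 7. Zfp977 stood at 40.6 and 41.3 CPM in the control, 199 and 230 in SCNT-Kdm3a and 105, 66.3, 82.3 and 64.6 in IVF (log2 fold change 2.39, SE 0.28, adjusted p = 1.04e-05). Zfp873 stood at 15.1 and 25.2, 102 and 122 and 67.7, 41.5, 55.0 and 61.9 CPM in the same order (log2 fold change 2.47, SE 0.37, adjusted p = 0.000159), and Zfp986 at 0.308 and 1.94, 15.3 and 10.7 and 8.55, 8.90, 10.9 and 7.97 CPM (log2 fold change 3.48, SE 0.61, adjusted p = 0.000929). Both injected libraries lay above both controls in all 3, and above all IVF libraries for Zfp977 and Zfp873. There were 13 raised Zfp genes without control replicate 1 and 14 without SCNT-Kdm3a replicate 2. In the other direction, Zfp503 had 1.64 and 1.27 CPM in the control and 1 read in all in SCNT-Kdm3a, a ratio of 41.7 (95% interval 6.96 to 1701). The call was lost without SCNT-Kdm3a replicate 2 for Zfp503 (adjusted p = 0.0703).

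Among 33 regulators of pluripotency 4 were raised, namely Sall4, Gabpa and the pair Dppa2 and Dppa4 given above. Gabpa, an ETS family activator, stood at 231 and 346 CPM in the control, 700.9 and 698 in SCNT-Kdm3a and 1356, 1111, 1242 and 1189 in IVF (log2 fold change 1.28, SE 0.23, adjusted p = 0.00121). Sall4, a zinc finger factor of the inner cell mass and oocyte, stood at 91.1 and 171, 256 and 319 and 509, 493, 508 and 525 CPM (log2 fold change 1.13, SE 0.29, adjusted p = 0.0198). In both genes the injected libraries lay above the controls and below all 4 IVF libraries. Of 287 odorant and pheromone receptor genes with enough reads, 6 (2.09%) were raised, close to the 2.38% of all genes. Vmn1r209 and Vmn1r174 had 0 to 3 reads in each control and 4.00 and 4.26 and 4.05 and 5.80 CPM in SCNT-Kdm3a, ratios of 44.2 (95% interval 11.97 to 369) and 33.9 (11.4 to 166). Olfr376 stood at 0.308 and 2.03 CPM in the control, 11.2 and 8.98 in SCNT-Kdm3a and 12.98, 12.9, 12.02 and 13.8 in IVF (log2 fold change 3.06, SE 0.67, adjusted p = 0.00612). Dropping 1 library ended the call without control replicate 1 for Sall4, Gabpa, Vmn1r209, Vmn1r174 and Olfr376 (adjusted p = 0.0592 to 0.309), without control replicate 2 for Vmn1r209 and Vmn1r174 (adjusted p = 0.0819 to 0.175), without SCNT-Kdm3a replicate 1 for Vmn1r209 and Vmn1r174 (adjusted p = 0.061 to 0.0734) and without SCNT-Kdm3a replicate 2 for Sall4, Vmn1r209 and Vmn1r174 (adjusted p = 0.0807 to 0.155).

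The raised genes with the highest levels had varied functions. H3f3b, a source of the replication-independent histone H3.3, held 1487 and 2401 CPM in the control, 3613 and 4326 in SCNT-Kdm3a and 4272, 3739, 4006 and 4023 in IVF (log2 fold change 1.03, SE 0.23, adjusted p = 0.00608). Xpo1 and Kpna2 code for the main nuclear export receptor and an importin alpha. Xpo1 stood at 936 and 1692 and 2312 and 2986 CPM (log2 fold change 1.01, SE 0.25, adjusted p = 0.0136) and Kpna2 at 428 and 1618 and 2593 and 3078 CPM (log2 fold change 1.47, SE 0.45, adjusted p = 0.0466). H3f3b, Xpo1 and Kpna2 were not called by DESeq2 (log2 fold change 0.97, adjusted p = 0.00204, then log2 fold change 0.95, adjusted p = 0.00721, then log2 fold change 1.41, adjusted p = 0.0603). Mier3, a corepressor subunit, Timd2, a ferritin receptor, and Trim43b, of a two-cell family of close copies, were raised by log2 fold changes of 1.06 to 1.51. Trim43b stood at 522 and 1302 CPM in the control, 2453 and 2750 in SCNT-Kdm3a and 1398, 1072, 1370 and 1174 in IVF. With 1 library left out, the call was lost without control replicate 1 for H3f3b, Xpo1, Kpna2, Mier3, Timd2 and Trim43b (adjusted p = 0.0516 to 0.442), without SCNT-Kdm3a replicate 1 for Kpna2 (adjusted p = 0.0885) and without SCNT-Kdm3a replicate 2 for H3f3b, Xpo1, Kpna2, Mier3 and Trim43b (adjusted p = 0.0679 to 0.196).

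The largest relative rises belonged to genes that were near silent in the control, where 49 raised genes had at most 3 reads in each control library and 22 had none. Hyal5, a sperm hyaluronidase gene, had no read in the controls and 2.78 and 2.90 CPM in SCNT-Kdm3a, which is at least 10.1-fold higher against a floor of 3 reads per library, and the IVF libraries held 5.75, 4.22, 6.25 and 5.68 CPM. Trim40 also had no control read and 3.61 and 1.18 CPM in SCNT-Kdm3a, at least 8.53-fold higher, while 3 of the 4 IVF libraries held at most 0.206 CPM. Myo18b, a myosin of muscle, had 0 and 1 reads in the controls and 5.39 and 5.62 CPM in SCNT-Kdm3a against 2.63, 3.03, 2.96 and 3.76 in IVF, a ratio of 118 (95% interval 20.9 to 4694). The immune cell receptors Lilr4b and Cd84 had ratios of 86.5 (95% interval 23.7 to 719) and 64.6 (11.3 to 2582). The other untreated group, SCNT-LatA, held reads of each of these genes. With SCNT-LatA as the reference, Hyal5 (adjusted p = 0.175), Myo18b (adjusted p = 0.102) and Trim40 were not called, whereas Lilr4b and Cd84 were. Leaving out 1 library ended the call without control replicate 1 for Trim40, Lilr4b and Cd84 (adjusted p = 0.119 to 0.19), without control replicate 2 for Trim40 and Lilr4b (adjusted p = 0.0817 to 0.129) and without SCNT-Kdm3a replicate 1 for Trim40 and Lilr4b (adjusted p = 0.0736 to 0.112).

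The other enzymes and readers of H3K9 methylation were not called. Of the 10 demethylase genes tested only Kdm3a passed, and none of 14 methyltransferase and reader genes did. Without the filter on low counts, 2 of the 10 demethylase genes were raised, and besides Kdm3a only Kdm4d rose by over 2-fold. Jmjd1c, of the KDM3 family, stood at 52.3 and 39.7 CPM in the control and 25.6 and 26.2 CPM in SCNT-Kdm3a, a change of under 2-fold (log2 fold change −0.83, SE 0.24, adjusted p = 0.0345) that passed both thresholds without control replicate 2 (−1.01, adjusted p = 0.025). Kdm3b stood at 40.6 and 49.7 and 44.3 and 58.1 CPM (log2 fold change 0.18, SE 0.24, adjusted p = 0.73), and Kdm4d at 2.67 and 0.761 and 5.39 and 2.90 CPM (log2 fold change 1.36, SE 0.51, adjusted p = 0.12). Among writers, Ehmt1 held 78.8 and 84.3 and 78.9 and 87.4 CPM (log2 fold change 0.03, SE 0.23), Ehmt2 31.2 and 35.6 and 16.9 and 27.8 CPM (−0.58, SE 0.25), Setdb1 52.8 and 40.4 and 50.7 and 58.5 CPM (0.23, SE 0.23) and Suv39h2 111 and 77.4 and 75.6 and 50.2 CPM (−0.57, SE 0.27). Cbx5, which codes for HP1 alpha, was above both controls in both injected libraries (212 and 270 and 413 and 351 CPM, log2 fold change 0.66, SE 0.19, adjusted p = 0.0319), by less than 2-fold. A p that misses the threshold does not show that these levels were equal.

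Lowered genes were of another kind. Gadd45g, a stress and growth arrest gene, stood at 38.8 and 74.7 CPM in the control, 5.50 and 6.17 in SCNT-Kdm3a and 5.75, 2.57, 4.60 and 3.84 in IVF (log2 fold change −3.29, SE 0.44, adjusted p = 4.08e-05). It and the antiproliferative Btg2 (18.9 and 27.5 and 9.61 and 9.79 CPM, log2 fold change −1.26, SE 0.32, adjusted p = 0.0178) were the 2 of 22 p53 targets that fell, and 16 of the 22 lay below 0, with a median of −0.52. Nupr1, a stress-induced chromatin protein, fell from 183 and 222 to 33.7 and 55.0 CPM (log2 fold change −2.19, SE 0.36, adjusted p = 0.000446), and the IVF libraries were lower still at 11.8, 9.95, 10.4 and 10.3 CPM. Zfp36l1, an RNA-binding protein that promotes decay of AU-rich mRNAs, had 18.9 and 9.81 CPM in the control and 3 reads in all in SCNT-Kdm3a, a ratio of 135 (95% interval 45.6 to 656), against 3.29, 1.38, 4.12 and 3.69 CPM in IVF. The deubiquitinase Yod1 fell from 59.7 and 102 to 10.3 and 19.8 CPM (log2 fold change −2.44, SE 0.40, adjusted p = 0.000414), which is below all 4 IVF libraries at 33.4, 36.0, 49.95 and 31.4 CPM. Map4k4, a kinase of the stress MAP kinase cascade, fell from 37.4 and 26.0 to 6.61 and 6.80 CPM (log2 fold change −2.24, SE 0.45, adjusted p = 0.00279). It was 1 of 2 lowered genes (2.86%) among 70 of the MAP kinase list, near the 1.78% of all genes, of which 49 lay at or below 0 with a median of −0.30, and Dusp14, a phosphatase, was the 1 raised (log2 fold change 1.14). The call was lost without control replicate 1 for Dusp14 (adjusted p = 0.0515), without control replicate 2 for Btg2 (adjusted p = 0.143), without SCNT-Kdm3a replicate 1 for Btg2 (adjusted p = 0.0969) and without SCNT-Kdm3a replicate 2 for Btg2 (adjusted p = 0.103).

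Some markers of later lineages fell as well. Of 17 lineage markers of later embryo stages, 3 were lowered and none raised, with a median of −1.20. Aqp3, a water and glycerol channel of trophectoderm, stood at 18.5 and 11.8 CPM in the control, 2.67 and 2.36 in SCNT-Kdm3a and 1.32, 1.32, 0.893 and 1.11 in IVF (log2 fold change −2.58, SE 0.52, adjusted p = 0.00326). Atp1b1, the sodium pump subunit used in blastocoel formation, fell from 30.2 and 22.7 to 9.16 and 7.07 CPM (log2 fold change −1.70, SE 0.32, adjusted p = 0.00175) against 24.5, 34.6, 26.3 and 32.4 CPM in IVF. Gata6, a factor of primitive endoderm, fell from 5.24 and 4.23 to 0.0555 and 0.998 CPM (log2 fold change −3.27, SE 0.88, adjusted p = 0.0252). The 6 later embryo markers fixed as a panel summed to 29.3 and 29.9 CPM in the control, 5.72 and 12.7 in SCNT-Kdm3a and 8.37 to 11.1 in IVF, with 2 of the 6 at 0 in both SCNT groups. Of 74 somatic lineage transcription factors, 1 was raised (Sox13) and 1 lowered (Gata6), 1.35% each, against 2.38% and 1.78% of all genes. Dropping 1 library ended the call without control replicate 1 for Aqp3, Gata6 and Sox13 (adjusted p = 0.058 to 0.176), without control replicate 2 for Sox13 (adjusted p = 0.0518), without SCNT-Kdm3a replicate 1 for Gata6 (adjusted p = 0.211) and without SCNT-Kdm3a replicate 2 for Sox13 (adjusted p = 0.189).

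Genes of the donor cell type were tested as a list of cumulus and granulosa genes. Of 43, 1 was raised and 4 were lowered, with a median of −1.12 (−0.60 with genes at the floor set to their bound) and 13 above 0. The median depended on the control libraries. It was −0.26 without control replicate 2, −0.20 with SCNT-LatA as the reference and −0.38 with both untreated groups as the reference. Serpine2, a protease inhibitor that cumulus cells secrete, fell from 29.1 and 25.4 to 4.67 and 3.99 CPM (log2 fold change −2.64, SE 0.41, adjusted p = 0.00027), below all 4 IVF libraries at 32.5, 43.4, 35.2 and 53.3 CPM. Fst, which codes for the activin-binding protein follistatin, had 1.95 and 10.6 CPM in the control and no read in SCNT-Kdm3a, at least 28.5-fold lower against the floor, and 3 of 4 IVF libraries had none either. Most of that signal was in control replicate 2. Vim, the intermediate filament vimentin, had 1.13 and 6.51 CPM in the control and 3 reads in all in SCNT-Kdm3a, a ratio of 39.5 (95% interval 13.1 to 195). The hyaluronan-binding Tnfaip6 was at 7.80 and 11.3 and 3.17 and 2.00 CPM (log2 fold change −1.87, SE 0.56, adjusted p = 0.0426). Gja1, the gap junction protein connexin 43, went the other way, from 84.0 and 104 to 195 and 296 CPM (log2 fold change 1.39, SE 0.24, adjusted p = 0.000777). The summed level of all 43 was 410 and 494 CPM in the control and 587 and 715 in SCNT-Kdm3a, so the sum rose while most members had negative fold changes. The part of leftover donor RNA in these values was not tested. With 1 library left out, the call was lost without control replicate 1 for Tnfaip6 (adjusted p = 0.0984), without control replicate 2 for Fst, Vim and Tnfaip6 (adjusted p = 0.0777 to 0.17), without SCNT-Kdm3a replicate 1 for Fst and Tnfaip6 (adjusted p = 0.0938 to 0.121) and without SCNT-Kdm3a replicate 2 for Fst, Vim and Tnfaip6 (adjusted p = 0.114 to 0.262).

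**Figure D2:**
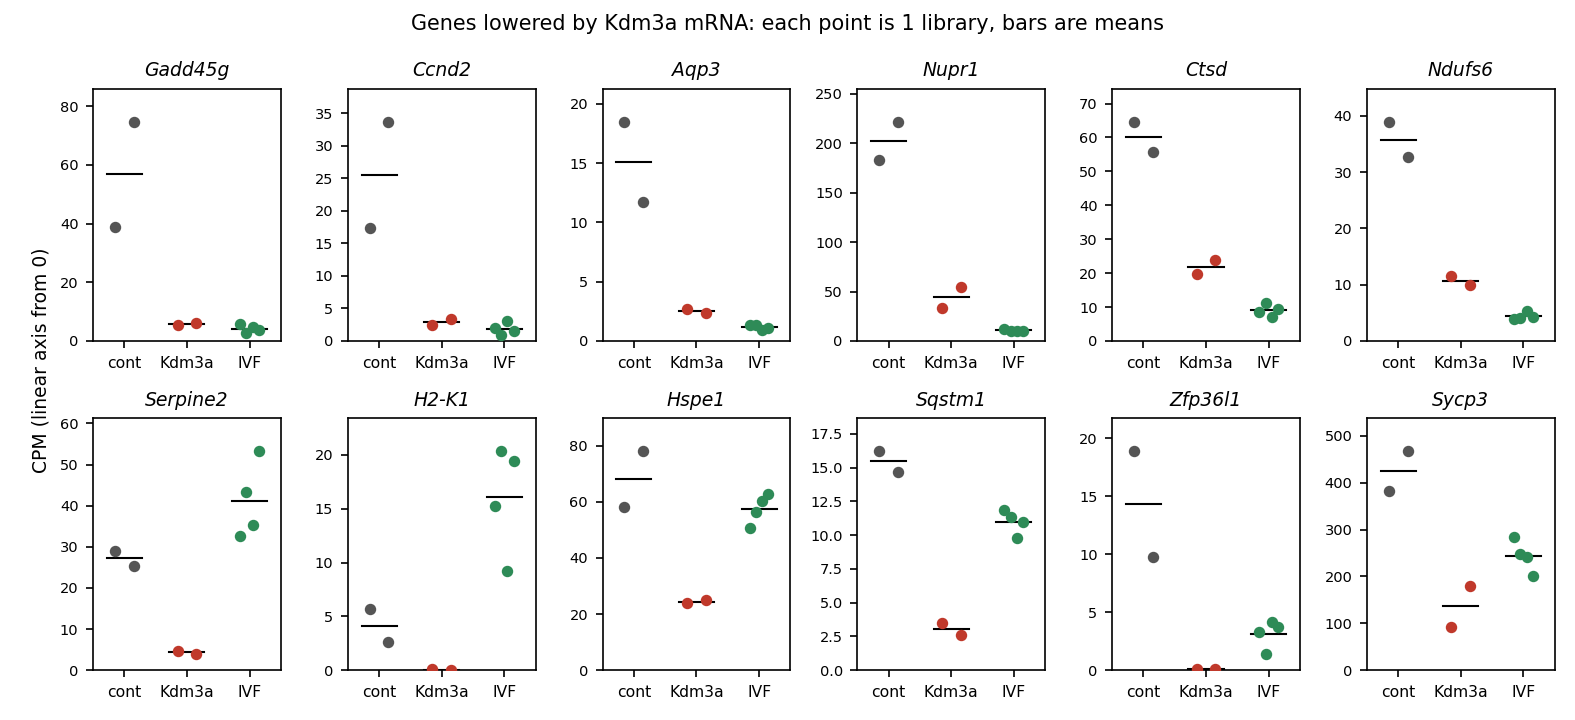
CPM of 12 lowered genes in each library, on linear axes from 0, with 1 point per library for control SCNT (grey, n = 2), SCNT-Kdm3a (red, n = 2) and IVF (green, n = 4) and a bar at each group mean. In every panel both SCNT-Kdm3a libraries lie below both controls. The IVF libraries overlap SCNT-Kdm3a for Gadd45g and Ccnd2, lie below it for Aqp3, Nupr1, Ctsd and Ndufs6, and above it for Serpine2, H2-K1, Hspe1 and Sycp3.

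Protein turnover genes moved in both directions. Of 46 genes of autophagy and lysosome, 5 were lowered and 2 raised (Atg13 and Ulk2), with a median of 0.01, and more were raised without control replicate 2. Neither Atg13 nor Ulk2 was called in DESeq2 or with RLE normalization. At least 1 of them lost its call without control replicate 1, and at least 1 without SCNT-Kdm3a replicate 2. Sqstm1, the p62 adaptor that delivers ubiquitinated cargo to autophagosomes, fell from 16.2 and 14.7 to 3.50 and 2.63 CPM (log2 fold change −2.32, SE 0.34, adjusted p = 0.000159), and Ctsd, the lysosomal protease cathepsin D, from 64.6 and 55.7 to 19.8 and 23.9 CPM (log2 fold change −1.46, SE 0.24, adjusted p = 0.000425) against 8.55, 11.3, 7.01 and 9.44 in IVF. Atg4c, an autophagy protease, had 74 reads in the control and 3 in SCNT-Kdm3a, a ratio of 33.2 (95% interval 10.9 to 165). Of 33 ubiquitin-conjugating enzymes, Ube2d1, Ube2q1, Ube2r2 and Ube2q2 were lowered and none was raised, with a median of −0.09. Ube2d1 fell from 10.7 and 6.26 to 1.11 and 1.72 CPM (log2 fold change −2.59, SE 0.56, adjusted p = 0.00545) and Ube2q1 from 8.63 and 6.17 to 1.000 and 0.635 CPM (log2 fold change −3.14, SE 0.78, adjusted p = 0.014). Of 47 proteasome genes, the 2 lowered ones belong to the immunoproteasome and its activator, and the other members gave 1 raised gene, Psmd6. Of the 47, 30 lay above 0 with a median of 0.20, and 10 were raised without control replicate 2. Psme1, of the PA28 activator, fell from 26.8 and 27.1 to 6.72 and 8.34 CPM (log2 fold change −1.84, SE 0.30, adjusted p = 0.000368), and Psmb10, an inducible catalytic subunit, from 23.6 and 39.4 to 9.16 and 10.3 CPM (log2 fold change −1.70, SE 0.31, adjusted p = 0.00138). Leaving out 1 library ended the call without control replicate 1 for Atg4c, Ube2d1, Ube2q1, Ube2q2 and Psmd6 (adjusted p = 0.0865 to 0.178), without SCNT-Kdm3a replicate 1 for Atg4c, Ube2d1 and Ube2q1 (adjusted p = 0.0679 to 0.146) and without SCNT-Kdm3a replicate 2 for Atg4c, Ube2q1, Ube2r2, Ube2q2 and Psmd6 (adjusted p = 0.071 to 0.221).

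Class I histocompatibility genes code for proteins that present the peptides the proteasome makes, and 2 of 13 were lowered and none was raised. The list as a whole did not lie low, with 8 of 13 above 0 and a median of 0.08. H2-K1 had 5.65 and 2.62 CPM in the control and 2 and 0 reads in SCNT-Kdm3a, a ratio of 57.9 (95% interval 15.5 to 486), and all 4 IVF libraries were higher than either group at 15.3, 20.4, 9.21 and 19.4 CPM. H2-D1 fell from 2.47 and 1.01 to 0.333 and 0.0907 CPM (log2 fold change −2.85, SE 0.81, adjusted p = 0.0337) against 15.3, 9.10, 8.52 and 16.6 in IVF. Reads of class I copies may be split. Of 30 actin and SRF targets, genes of the cytoskeleton and of the immediate early response, 4 were lowered and none raised, with a median of −0.61. Tagln2, an actin-binding protein, fell from 11.6 and 4.57 to 0.0555 and 0.726 CPM (log2 fold change −4.52, SE 0.94, adjusted p = 0.00417), Ier2, an immediate early gene, from 10.6 and 8.12 to 1.06 and 1.27 CPM (log2 fold change −3.00, SE 0.72, adjusted p = 0.0117) and Actn1, the actin crosslinker, from 5.75 and 5.66 to 1.56 and 1.63 CPM (log2 fold change −1.84, SE 0.44, adjusted p = 0.0114). Fhl2, a LIM protein, had no read in SCNT-Kdm3a, at least 11.3-fold lower. The call was lost without control replicate 1 for H2-D1, Tagln2, Ier2 and Actn1 (adjusted p = 0.0642 to 0.313), without SCNT-Kdm3a replicate 1 for H2-D1, Tagln2, Ier2, Actn1 and Fhl2 (adjusted p = 0.0707 to 0.105) and without SCNT-Kdm3a replicate 2 for H2-D1, Ier2, Actn1 and Fhl2 (adjusted p = 0.077 to 0.226).

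Mitochondrial genes were split. Of 81 nuclear genes of oxidative phosphorylation, 4 were lowered and none raised, while the median was 0.01. Ndufs6, of complex I, fell from 38.9 and 32.6 to 11.5 and 9.89 CPM (log2 fold change −1.74, SE 0.32, adjusted p = 0.00151), toward IVF at 3.95, 4.15, 5.36 and 4.28 CPM. Atp5e, the epsilon subunit of ATP synthase, fell from 101.3 and 85.0 to 32.6 and 44.0 CPM against 33.2, 37.2, 35.6 and 31.4 in IVF (log2 fold change −1.28, SE 0.20, adjusted p = 0.000333). Cox5b and Cox4i2 fell by 1.16 and 1.54 on the log2 scale. Of 77 mitochondrial ribosomal proteins, 4 were lowered (Mrps24, Mrps26, Mrps35 and Mrpl57) and Mrpl50 was raised, with a median of 0.17, and more were raised without control replicate 2. Mrps26 lost its call without control replicate 1 and without either SCNT-Kdm3a replicate. Among 72 chaperones, the mitochondrial co-chaperonin Hspe1 fell from 58.2 and 78.0 to 23.8 and 24.9 CPM (log2 fold change −1.48, SE 0.27, adjusted p = 0.00128), whereas the cytosolic Dnaja1 and Hspa8 rose, and 6 chaperones were raised without control replicate 2. Hspa8 stood at 382 and 561 CPM in the control, 895 and 1026 in SCNT-Kdm3a and 424, 364, 395 and 355 in IVF (log2 fold change 1.03, SE 0.24, adjusted p = 0.00963), and Dnaja1 at 419 and 566, 831 and 1245 and 541, 408, 476 and 462 CPM (log2 fold change 1.08, SE 0.26, adjusted p = 0.012). Dnajb2 was lowered with adjusted p = 0.0435. Hspg2, which codes for a proteoglycan and not for a chaperone, was counted in the list of 72 and was lowered too (adjusted p = 0.0352). Of this list 2.78% were raised and 4.17% lowered, against 2.38% and 1.78% of all genes. Dropping 1 library ended the call without control replicate 1 for Cox5b, Mrps24, Mrps35, Mrpl57, Mrpl50, Dnaja1, Hspa8, Dnajb2 and Hspg2 (adjusted p = 0.114 to 0.24), without control replicate 2 for Cox5b, Cox4i2, Mrps35, Mrpl57 and Dnajb2 (adjusted p = 0.0503 to 0.258), without SCNT-Kdm3a replicate 1 for Cox5b, Cox4i2, Mrps24, Mrps35, Mrpl57, Dnajb2 and Hspg2 (adjusted p = 0.0847 to 0.373) and without SCNT-Kdm3a replicate 2 for Mrps24, Mrps35, Mrpl57, Mrpl50, Dnaja1, Hspa8, Dnajb2 and Hspg2 (adjusted p = 0.0854 to 0.203).

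Few chromatin and germline genes moved. In the germline list 1.59% were raised and 3.17% lowered, against 2.38% and 1.78% of all genes. Of 63 germline genes silenced in somatic cells, Sycp3, of the synaptonemal complex, fell from 382 and 468 to 92.4 and 180 CPM (log2 fold change −1.65, SE 0.35, adjusted p = 0.0049) with 285, 248, 242 and 201 CPM in IVF, and Tdrd1, of the piRNA pathway, from 31.2 and 26.5 to 7.11 and 14.7 CPM (log2 fold change −1.42, SE 0.34, adjusted p = 0.0122). D1Pas1, a testis copy of a DEAD-box helicase, was raised from 3.39 and 0 to 3.61 and 28.1 CPM (adjusted p = 0.0309), far under the 114, 119, 113 and 119 CPM of IVF, and 1 control lay next to 1 injected library. Of 29 genes imprinted by H3K27me3, Jade1 and Mbnl2 were lowered, with a median of −0.73 over the list. Of 43 canonically imprinted genes, Ube3a and Usp29 were raised and Rian and Plagl1 lowered. Ube3a, a ubiquitin ligase, stood at 70.7 and 69.7 CPM in the control, 202 and 200 in SCNT-Kdm3a and 224, 208, 233.8 and 203 in IVF (log2 fold change 1.52, SE 0.18, adjusted p = 1.12e-05). Rian, a maternally expressed noncoding RNA, fell from 5.14 and 11.5 to 0.167 and 1.27 CPM (adjusted p = 0.0352). Hdac2 fell from 103 and 86.7 to 48.8 and 41.8 CPM (log2 fold change −1.06, SE 0.23, adjusted p = 0.00571) and was the 1 called of 26 deacetylases and acetyltransferases. Dnmt3b, a de novo DNA methyltransferase, was the 1 called of 19 DNA methylation genes (adjusted p = 0.0193), at 10.3 and 17.8 CPM in the control and 5.67 and 4.26 in SCNT-Kdm3a. Among the 36 Polycomb and Trithorax genes, those called included Pcgf1, which was raised, and Kmt2b, which was lowered. None of 49 maternal genes stored in the oocyte was called, with a median of −0.03, and 3 were raised without control replicate 2. With 1 library left out, the call was lost without control replicate 1 for Tdrd1, Mbnl2, Usp29, Rian, Hdac2 and Kmt2b (adjusted p = 0.0673 to 0.175) and Pcgf1 (log2 fold change 0.95), without control replicate 2 for D1Pas1, Rian, Plagl1 and Dnmt3b (adjusted p = 0.0909 to 0.195), without SCNT-Kdm3a replicate 1 for Sycp3, Tdrd1, Mbnl2, Usp29, Rian, Dnmt3b and Kmt2b (adjusted p = 0.0569 to 0.246) and without SCNT-Kdm3a replicate 2 for D1Pas1, Plagl1, Hdac2 and Dnmt3b (adjusted p = 0.0839 to 0.581) and Pcgf1 (log2 fold change 0.86).

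**Figure D3:**
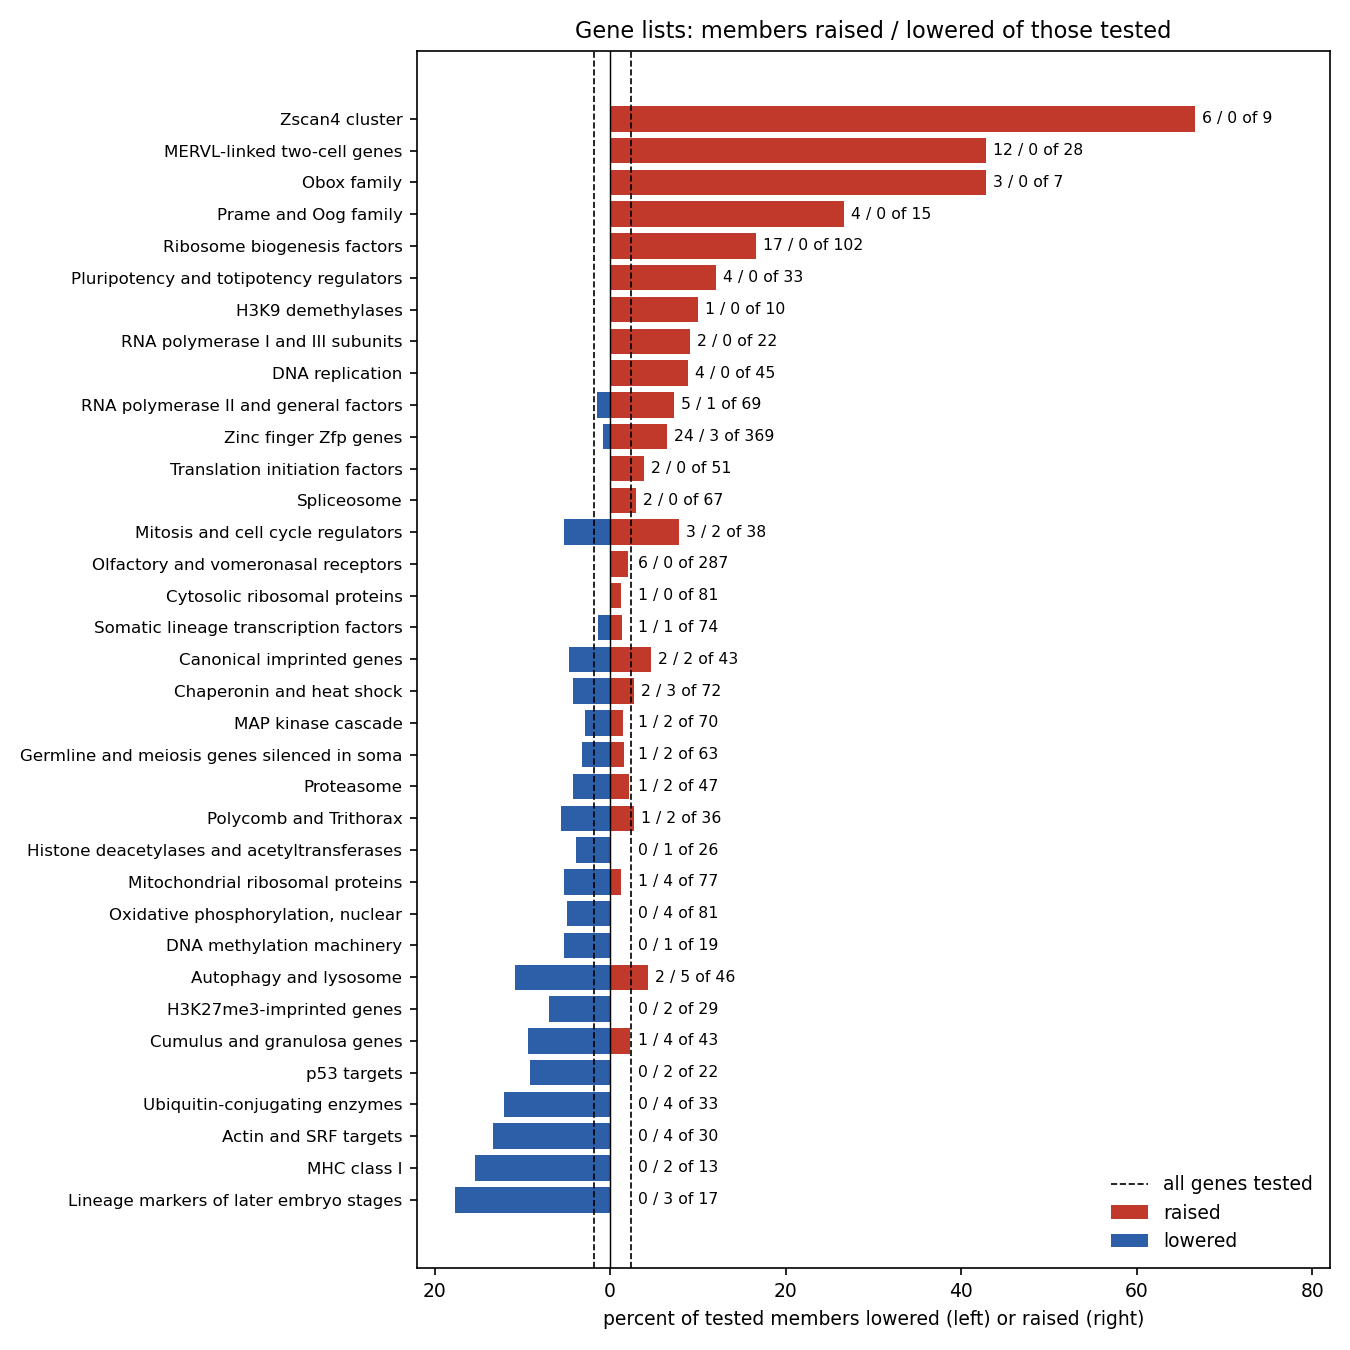
Percent of the tested members of each gene list that were lowered (blue, to the left) or raised (red, to the right) in SCNT-Kdm3a against control SCNT, with the counts raised / lowered of tested beside each bar. Dashed lines mark the shares over all genes tested, 1.78% lowered and 2.38% raised. The Zscan4, MERVL-linked, Obox and Prame lists have the longest bars to the right and later lineage, class I, actin and ubiquitin-conjugating lists the longest to the left, and lists without a call are not drawn.

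The most abundant lowered gene was Fth1, the ferritin heavy chain, at 714 and 640 CPM in the control, 188 and 281 in SCNT-Kdm3a and 561, 142, 421 and 502 in IVF (log2 fold change −1.53, SE 0.42, adjusted p = 0.0279). Slc38a2, an amino acid transporter, fell from 144 and 159 to 50.1 and 38.5 CPM (log2 fold change −1.77, SE 0.43, adjusted p = 0.0123) with 13.5, 20.3, 34.7 and 26.1 in IVF, and the noncoding Neat1, a scaffold of paraspeckles, from 51.9 and 112 to 16.7 and 30.3 CPM (log2 fold change −1.81, SE 0.42, adjusted p = 0.01). Id2, an inhibitor of helix-loop-helix factors, fell from 57.7 and 113 to 35.9 and 17.3 CPM with an adjusted p of 0.043. In 90 lowered genes each SCNT-Kdm3a library had at most 3 reads, and in 40 there were none. Ctsf, a cathepsin, and Rnase4, a secreted ribonuclease, were at least 15.2-fold and at least 12.5-fold lower against the floor of 3 reads. Muc1, an epithelial mucin, had 1 read in SCNT-Kdm3a and 103 in the control, a ratio of 139 (95% interval 24.3 to 5529). Tbc1d4, a GTPase activator of glucose transport, had a ratio of 132 (95% interval 23.1 to 5263), and Gal, the neuropeptide galanin, was at least 6.57-fold lower. Leaving out 1 library ended the call without control replicate 1 for Fth1, Slc38a2, Id2, Ctsf, Rnase4 and Muc1 (adjusted p = 0.0577 to 0.151), without control replicate 2 for Neat1, Id2 and Muc1 (adjusted p = 0.0601 to 0.286), without SCNT-Kdm3a replicate 1 for Fth1, Neat1, Ctsf, Rnase4, Muc1 and Gal (adjusted p = 0.0599 to 0.206) and without SCNT-Kdm3a replicate 2 for Fth1, Slc38a2, Id2, Ctsf, Rnase4, Muc1 and Tbc1d4 (adjusted p = 0.0548 to 0.323).

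Where IVF embryos stood was asked for each called gene. The control mean of log2(CPM + 1) lay below the lowest IVF library for 551 of the 613 raised genes (89.9%), within the IVF range for 43 and above it for 19. The SCNT-Kdm3a mean lay below the IVF range for 127 of them (20.7%), within it for 141 (23.0%) and above it for 345 (56.3%). Of the 459 lowered genes, 315 had a control mean above the highest IVF library (68.6%), 93 within and 51 below. With Kdm3a, 53 lay above (11.5%), 117 within (25.5%) and 289 below (63.0%). Since the same libraries set the calls, the positions of the called genes are in part fixed by the call and are a description. In SCNT-Kdm3a both sets lay on the far side of the IVF range more often than inside it, and over all tested genes 8125 lay above and 6855 below in SCNT-Kdm3a.

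**Figure D4:**
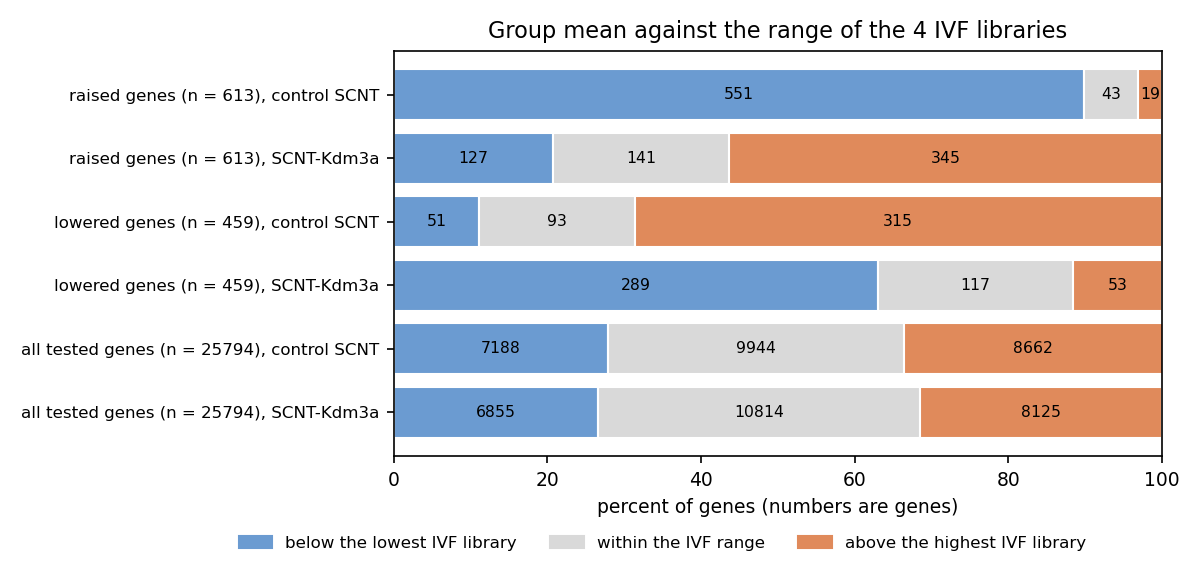
Percent of genes whose group mean of log2(CPM + 1) lay below the lowest (blue), within the range (grey) or above the highest (orange) of the 4 IVF libraries, with the number of genes in each block. Raised genes moved from 551 below IVF in control SCNT to 345 above it in SCNT-Kdm3a, and lowered genes from 315 above it to 289 below it, while the 25794 tested genes stayed spread over all 3 classes.

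The tests against IVF, which share the SCNT or IVF libraries with one another and so are given side by side, used the same call. Over all genes SCNT-Kdm3a had 1704 higher (6.61%) and 1600 lower (6.2%) than IVF, and control SCNT had 2108 higher (8.17%) and 1757 lower (6.81%). Among the raised genes, 342 were called lower than IVF in the control and 16 in SCNT-Kdm3a, and 2 and 104 were called higher. In 315 of the 613 (51.4%) the control was called lower than IVF and SCNT-Kdm3a was called neither way, and 91 went from neither to higher. Among the lowered genes, 191 were called higher than IVF in the control and 20 in SCNT-Kdm3a, and 9 and 187 were called lower. The largest crossing there was from neither to lower than IVF, with 170 genes (37.0%), ahead of 163 (35.5%) from higher to neither. Nupr1, Ctsd, Ripk3 and Ndufs6 were among the 20 that stayed higher than IVF, and Yod1, Zfp36l1, Tbc1d4 and Cyb5a among the 8 that went from higher to lower. By list, 8 of the 9 Zscan4 genes were lower than IVF in the control and 2 in SCNT-Kdm3a, and 15 and 3 of the 102 ribosome biogenesis factors were.

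The SCNT-LatA embryos, also untreated but made with another actin inhibitor, gave a comparison with IVF in which neither group was part of the Kdm3a contrast. Over all genes SCNT-LatA had 2277 higher (8.83%) and 1673 lower (6.49%) than IVF. Of the genes raised by Kdm3a, 303 (49.4%) were lower in SCNT-LatA than in IVF and 6 were higher. Of the genes lowered by Kdm3a, 176 (38.3%) were higher in SCNT-LatA than in IVF and 16 were lower. The study's own list of reprogramming-resistant genes held 879 tested genes, of which 222 were raised and 8 lowered, but that list was chosen on libraries of this series and is no independent evidence. The remaining 391 raised genes (63.8%) were not on it, and 84 of those were lower in SCNT-LatA than in IVF.

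Raised genes were not spread evenly over the genome. Of the 1 Mb windows of mm10 with at least 5 tested genes (1583 windows), 43 held 3 or more raised genes and 16 held 3 or more lowered ones, and the most in any window was 8 raised and 4 lowered. The window chr7:11000001-12000000 held 8 raised of 27 tested, among them Zscan4c, Zscan4d, Zscan4f, Zscan4-ps1 and Zscan4-ps2. The window chr13:120000001-121000000 held 7 raised of 10, with Tcstv3, AF067061 and BC147527. The windows chr7:15000001-16000000 (6 of 20, with Obox3, Obox6 and Crxos) and chr10:82000001-83000000 (6 of 28, with Zfp873 and Zfp938) followed. Crxos, a homeobox gene next to Obox6, stood at 380 and 502 CPM in the control, 1087 and 1207 in SCNT-Kdm3a and 563, 605, 669 and 571 in IVF (log2 fold change 1.38, SE 0.20, adjusted p = 0.000159), and Tcstv3, of a family of close copies, at 107 and 78.5, 280 and 203 and 99.3, 88.3, 128 and 90.0 CPM (log2 fold change 1.38, SE 0.30, adjusted p = 0.00537). By chromosome, the raised share of tested genes ran from 1.01% on chromosome 6 to 3.85% on chromosome 13, and the lowered share from 1.09% on chromosome 17 to 2.39% on chromosome 8. Since members of a family lie side by side and share reads, the genes of a window are not independent. The call was lost without control replicate 2 for Tcstv3 and BC147527 (adjusted p = 0.0615 to 0.192), without SCNT-Kdm3a replicate 1 for Tcstv3 and BC147527 (adjusted p = 0.0656 to 0.119) and without SCNT-Kdm3a replicate 2 for BC147527 (adjusted p = 0.0533).

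Genes of the X chromosome were tested between the 2 female SCNT groups only. Of 1010, 25 (2.48%) were raised and 29 (2.87%) lowered. Xist, the RNA that silences 1 X chromosome, stood at 92.6 and 45.8 CPM in the control and 44.6 and 52.2 CPM in SCNT-Kdm3a (log2 fold change −0.52, SE 0.43, adjusted p = 0.542), so the control replicates differed from each other by more than the groups. Sat1, of polyamine catabolism, rose from 959 and 1244 to 2116 and 2932 CPM (log2 fold change 1.20, SE 0.30, adjusted p = 0.0143). Gm381 had no read in the controls and 7.72 and 4.08 CPM in SCNT-Kdm3a, at least 21.01-fold higher. On the lowered side, Fam122b fell from 100.8 and 121.4 to 23.2 and 35.6 CPM (log2 fold change −1.92, SE 0.24, adjusted p = 2.43e-05), Cited1, a transcription coactivator, from 37.2 and 77.6 to 9.61 and 17.3 CPM (−2.10, SE 0.33, adjusted p = 3.44e-04) and Tceal9 from 51.2 and 106 to 6.50 and 16.9 CPM (−2.77, SE 0.49, adjusted p = 9.87e-04). Bex2, Bex3 and Bex4, a small family next to Tceal9 on the X, were lowered too, with Bex3 at 17.2 and 11.3 CPM in the control and 0 and 2 reads in SCNT-Kdm3a. X-linked genes were fitted with all libraries only, so whether their calls hold with 1 library left out was not tested.

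The promoters of the called genes differed in composition from those of all tested genes, as a description. RefSeq windows of 250 bases before and 50 after the start were matched by symbol for 344 raised, 338 lowered and 14464 tested genes. The median GC content was 54.4% for raised, 62.3% for lowered and 58.3% for all tested genes, and the median number of CG steps was 14.5, 19 and 17. The GC box GGGCGG was present in 45.9% of raised, 70.1% of lowered and 56.2% of tested genes, and the E box CACGTG in 6.4%, 16% and 10.1%. The ETS motif CCGGAAG, the kind that GABPA binds, was present in 20.6%, 9.76% and 15.4%, and GGATTA, the kind that OBOX and other homeobox proteins bind, in 11.9%, 4.14% and 7.69%. TATAAA (11.3%, 11.8% and 11.4%), CCAAT (45.3%, 44.1% and 41.9%), AAGGTCA (4.94%, 5.62% and 4.76%) and TGCACAC (4.65%, 4.44% and 4.84%) differed less. The 8 motifs were searched on both strands. A match is not evidence of binding, and the raised set holds families of near-identical promoters such as those of the Zscan4 genes.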

How the data were processed

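RNA was sequenced from pools of two-cell embryos with SMART-Seq HT cDNA and paired-end reads. According to the methods of the study, the authors used Trimmomatic 0.36 for trimming and STAR 2.7.5c for alignment to mm10, kept unique alignments only, and made the deposited counts with featureCounts 1.6.2 over exons of a joint annotation of genes and transposable elements, so that a pair overlapping more than 1 feature was not counted. Strand was not used, so antisense genes that overlap cannot be told apart. The table held 55375 gene rows, used here as whole-number counts, and 1755056 element rows, not used here.

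Genes on the mitochondrial genome were left out of library sizes and sex chromosomes were left out of the tests, except for X-linked genes between the SCNT groups. Counts were fitted in R 4.3.3 with edgeR 4.0.16 (TMM, quasi-likelihood test, a term for each of 11 groups, all 25 libraries), and every adjusted p in the report without another name comes from it. DESeq2 1.42.0 was an alternative, as were RLE normalization, 2 filters on low counts, kept sex chromosomes, only the 4 libraries, a replicate block, SCNT-LatA or both untreated groups as reference, and each library left out. The fits were tested on simulated counts. Depth sets a floor of 3 reads per library.

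The members, the 39 gene lists and the motifs were chosen with earlier results of these data known, and the antioxidant list of the closing section was chosen after its values were seen. The genes named were those of the H3K9 enzyme lists, the 15 largest changes and the 10 highest levels in each direction (the former with 10 or more reads in both or all libraries where the gene was higher, and without predicted genes or pseudogenes), up to 4 called members of each list and all members of lists of up to 12. Genes given beside these, such as Crxos, Tcstv3, Gja1, Hspa8 and the X-linked ones, were picked after their values were seen. Some called members of the lists are not reported here.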

Additional observations from a re-analysis of the deposited data

Results flagged for a closer look

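Among the 173 named genes, the 4 IVF libraries held 1 value far from the other 3 in 9 (5.2%), where chance gives about 1 in 20. The gap of that value to its nearest neighbour, as a part of the whole IVF range, was above Dixon's 95% critical value for Kdm7a (0.905, with 582 CPM against 484 to 494), Trim40 (0.964, with 1.78 CPM against 0.148 to 0.206), AF067061 (0.897, with 61.2 CPM against 27.3 to 30.8), Pramef6 (0.841, with 18.0 CPM against 33.5 to 36.4) and Tac1 (0.847, with 1.97 CPM against 0.344 to 0.593). The same held for Hspg2 (0.934, with 2.14 CPM against 0.481 to 0.59), Dnajb2 (0.838, with 9.69 CPM against 5.39 to 6.08), Fst (1.0, with 0.0687 CPM against 0 in the others) and Ankrd55 (1.0, with 0.137 CPM against 0 in the others). With 3 libraries at 0 the value of 1.0 follows whatever the other library holds, here 1 read of Fst and 2 reads of Ankrd55, so it says nothing about these 2 genes. For AF067061 the high IVF library lay inside the range of the SCNT-Kdm3a libraries, 59.0 and 98.9 CPM, and the other 3 lay between the SCNT groups.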

How the results depend on the processing

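The Kdm3a comparison gave 1072 calls in all, and 343 to 1335 with 1 library left out, with the lowest count without control replicate 1 and the highest without control replicate 2. It gave 540 without SCNT-Kdm3a replicate 2, 1695 with SCNT-LatA as the reference and 1719 with both untreated groups. With RLE normalization the split was 495 raised and 495 lowered. TMM put the median of the 8339 genes above 10 CPM at 0.12, and RLE at 0.06. The differences between replicates 1 and 2 in the control and in SCNT-Kdm3a had a correlation of 0.03 across genes. With 1 difference per group this cannot show whether the replicate numbers pair the libraries. A fit with the replicate block called 514 raised and 328 lowered genes (842 in all). Over all genes, the calls against IVF ran from 2336 to 3852 for SCNT-Kdm3a (3304 as reported) and from 2620 to 4467 for the control (3865 as reported). Positions in the IVF range were recomputed with pseudocounts of 0.1 and 5 only, which moved no count by 1.5 times, and the crossings of called genes were not recomputed in other fits. In 2 Mb windows, 29 held 3 or more lowered genes, with at most 7. Of the fits of 143 named called genes, 1496 of 1859 kept the call and 362 lost it. In the other 1, Ankrd55 with SCNT-LatA as the reference, the log2 fold change was 0.00, since neither SCNT-Kdm3a nor SCNT-LatA held a read of it.

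Among named genes that were not called, log2 fold changes changed sign as follows. With SCNT-LatA as the reference they were −0.006 for Kdm4d, −0.045 for Ehmt1, −0.19 for Wiz, −0.39 for Setdb2, −0.009 for Mphosph8, 0.23 for Obox2 and 0.13 for Obox1. With both untreated groups they were −0.009 for Ehmt1, −0.12 for Setdb2 and 0.058 for Obox1. DESeq2 and RLE gave −0.03 for Ehmt1 and −0.019 for Obox5, and the fit of the 4 libraries gave −0.001 for Ehmt1. With 1 library left out they ran from −0.029 to 0.36 for Kdm3b, −0.37 to 0.28 for Kdm7a, −0.047 to 0.10 for Ehmt1, −0.63 to 0.65 for Setdb2, −0.03 to 0.29 for Trim28, −0.33 to 0.52 for Obox7, −0.21 to 0.22 for Obox1 and −0.12 to 0.22 for Obox5.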

Other observations

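Genes that protect against oxidative stress formed no list of the report. A list of 31 was put together after some of their values were seen, so its counts are a description only. None was raised and 9 were lowered, 27 lay below 0, and the median log2 fold change was −0.82 against −0.04 over all genes. Hmox1, which breaks down heme, stood at 12.6 and 15.6 CPM in the control and 2.61 and 0 CPM in SCNT-Kdm3a (log2 fold change −3.31, SE 0.72, adjusted p = 0.00553). The IVF libraries held 8.38, 3.95, 6.80 and 9.44 CPM of Hmox1. The glutathione enzymes Gpx2 and Gsto1 fell from 14.99 and 7.44 to 0.333 and 0.272 CPM (log2 fold change −5.14, SE 0.98, adjusted p = 0.00194) and from 36.0 and 41.9 to 4.78 and 7.07 CPM (log2 fold change −2.73, SE 0.48, adjusted p = 0.000965). Thioredoxin (Txn1) and its reductase (Txnrd1) fell from 46.3 and 53.3 to 8.00 and 18.3 CPM (log2 fold change −1.93, SE 0.34, adjusted p = 0.000965) and from 49.1 and 36.6 to 7.83 and 10.5 CPM (log2 fold change −2.23, SE 0.34, adjusted p = 0.000202), and the IVF libraries held 9.53, 13.1, 15.9 and 12.03 CPM of Txn1 and 10.9, 16.9, 8.38 and 10.2 CPM of Txnrd1. The other 4 were Ugdh, Gsr, Sqstm1 and the ferritin gene Fth1, the latter pair also named in the report. Of the 9, 5 were called higher in the control than in IVF. In SCNT-Kdm3a, Hmox1 was called lower than in IVF, and Gpx2, Gsto1, Txn1, Txnrd1, Ugdh, Gsr and Fth1 were called neither way. Gsr lost the call without control replicate 1, control replicate 2 or SCNT-Kdm3a replicate 2 (adjusted p = 0.0761 to 0.276), and Fth1 without control replicate 1 or either SCNT-Kdm3a replicate.

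Further genes outside the lists, picked after their values were seen, also differed between the groups. Ripk3, a kinase of necroptosis, fell from 67.4 and 48.4 to 5.83 and 7.62 CPM (log2 fold change −3.11, SE 0.49, adjusted p = 0.000297) with 1.64, 0.857, 0.756 and 1.03 CPM in IVF. Traf6, an adaptor of innate immune signalling, fell from 25.1 and 24.4 to 5.94 and 4.26 CPM (log2 fold change −2.26, SE 0.37, adjusted p = 0.000446) with 8.88, 4.75, 4.05 and 5.68 CPM in IVF. Socs2, a feedback inhibitor of cytokine signalling, fell from 32.9 and 26.4 to 3.72 and 4.35 CPM (log2 fold change −2.88, SE 0.32, adjusted p = 4.84e-06), away from the IVF libraries at 54.2, 53.7, 62.5 and 63.8 CPM. Tfam, which packages and transcribes mitochondrial DNA, fell from 46.3 and 43.8 to 11.7 and 12.8 CPM (log2 fold change −1.88, SE 0.29, adjusted p = 0.000211) with 15.5, 16.4, 10.03 and 14.1 CPM in IVF, and mitochondrial reads made up 10.16% and 8.28% of gene counts in the control, 7.35% and 5.78% in SCNT-Kdm3a and 4.65% to 5.78% in IVF. Among raised genes, Rfpl4b, of a family active in early embryos, went from 72.3 and 67.2 to 270 and 304 CPM (log2 fold change 2.04, SE 0.33, adjusted p = 0.000368) with 340, 329, 406 and 310 CPM in IVF, and Zfp981 from 100.1 and 53.8 to 338 and 300 CPM (log2 fold change 2.05, SE 0.34, adjusted p = 0.000419), above the IVF libraries at 57.5, 76.5, 89.5 and 90.8 CPM. Pa2g4, a growth-related nucleolar protein, went from 335 and 398 to 779 and 943 CPM (log2 fold change 1.23, SE 0.20, adjusted p = 0.000351), and the SUMO protease Senp7 from 69.6 and 39.7 to 134 and 152 CPM (log2 fold change 1.39, SE 0.25, adjusted p = 0.00128). No explanation of these values was tested.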
